A study of Mus musculus with 23 samples.

Results

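The imprinted growth genes examined here were Igf2, H19, Phlda2, Cdkn1c, Plagl1, Peg3, Dlk1, Meg3, Mest and Grb10, a list of 10 genes named from earlier work on these libraries and followed in all 6 groups of tumor libraries. An imprinted gene is transcribed mainly from the copy inherited from 1 parent, as a rule because DNA methylation set in the egg or sperm marks the parental copies differently. Genes active from the father's copy (Igf2, Plagl1, Peg3, Dlk1, Mest) tend to promote fetal growth, and genes active from the mother's copy (H19, Phlda2, Cdkn1c, Meg3, and Grb10 outside neurons) tend to restrain it. Most of them are switched down after birth, and in adult brain Igf2 is made mainly by the choroid plexus and the meninges, while Peg3, Meg3 and the brain form of Grb10 belong to neurons. The rule asked for reads summed per gene in the Salmon tables, which hold 35576 genes and contained 8 of the 10 members. H19 and Meg3 are long noncoding RNAs and were measured only in the RSEM tables, which hold 55487 genes and all 10 members but cover 15 of the 23 libraries (bulk tumors and sorted cells). The members were chosen by name with their Salmon read counts in these 6 groups already known, so the values of those 8 are given as a description without p-values. H19 and Meg3 had no Salmon value and were tested on RSEM counts, although the list as a whole was chosen with results of these libraries known.

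GL261-luc2 and CT2A-luc are mouse glioma lines, each a single line that was induced with methylcholanthrene, carries luciferase and was grown in the right striatum of female albino C57BL/6 mice aged 7 to 10 weeks at implantation. Bulk tumors were GL261-luc2 (4 libraries, replicates 405, 412, 414 and 417) and CT2A-luc (4 libraries, replicates 39, 40, 47 and 48), harvested after 22 to 24 days and containing host brain, vessels and blood cells. Sorted tumor cells came from a further subline of GL261 (4 libraries, replicates 81 to 84) and of CT2A (3 libraries, replicates 69 to 71), and were isolated from dissociated tumors with magnetic beads. Neurosphere-derived sorted cells came from the same sublines after culture as neurospheres, with 3 GL261 libraries (replicates 89 to 91) and 5 CT2A libraries (replicates 57 to 61). The 5 CT2A neurosphere libraries carry titles that name GL261, but 2 other fields of their records name CT2A, and that name is used here. No group carries a treatment.

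Salmon assigned 34622622 to 42608400 reads per library in GL261 bulk tumors, 9590096 to 9853530 in CT2A bulk tumors and 7395846 to 15263587 in the sorted and neurosphere-derived cells. Bulk and sorted libraries also differed in subline, kit, read length (150 against 37 bases) and sequencer, so these cannot be told apart from the effect of sorting. Levels are given as CPM (counts scaled to library size after TMM normalization), and levels of different genes are compared only per transcript length (TPM). The summed level of 9 neuron markers, all detected, was 222 to 3850 CPM in GL261 bulk tumors and 558 to 3510 in CT2A bulk tumors, against 17.9 to 173 in the 15 sorted and neurosphere-derived libraries. In bulk tumors a smaller share of cells of a type and less RNA per cell cannot be told apart. Which parental copy the reads came from was not analysed here.

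The promoters of the members that set the lines apart are shown because most of the reads came from the transcript that starts there. RefSeq (GRCm38.p6) windows from 250 bases before to 50 bases after a start site matched 8 of the 10 members in 15 windows, and the windows that serve the most abundant Igf2, Plagl1, Mest and Peg3 transcripts are printed 5′ to 3′ on the gene's strand. Capitals mark GGGGCCCC, the motif bound by PLAGL1 (a palindrome), and TGCCGC or its reverse complement GCGGCA, the motif bound by ZFP57, the zinc finger protein that keeps imprints methylated.
Igf2, chr7:142657447-142657746, minus strand: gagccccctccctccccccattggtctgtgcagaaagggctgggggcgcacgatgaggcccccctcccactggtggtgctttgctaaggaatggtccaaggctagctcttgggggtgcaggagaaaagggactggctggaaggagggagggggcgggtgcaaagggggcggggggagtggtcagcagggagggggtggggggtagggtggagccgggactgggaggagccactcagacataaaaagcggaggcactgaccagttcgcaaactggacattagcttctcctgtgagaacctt
Plagl1, chr10:13090582-13090881, plus strand: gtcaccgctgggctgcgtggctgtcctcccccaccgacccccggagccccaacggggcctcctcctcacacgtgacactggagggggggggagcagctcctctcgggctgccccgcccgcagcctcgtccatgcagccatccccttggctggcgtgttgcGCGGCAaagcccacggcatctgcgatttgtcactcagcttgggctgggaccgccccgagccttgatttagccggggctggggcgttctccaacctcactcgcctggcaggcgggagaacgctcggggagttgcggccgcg
Mest, chr6:30737800-30738099, plus strand: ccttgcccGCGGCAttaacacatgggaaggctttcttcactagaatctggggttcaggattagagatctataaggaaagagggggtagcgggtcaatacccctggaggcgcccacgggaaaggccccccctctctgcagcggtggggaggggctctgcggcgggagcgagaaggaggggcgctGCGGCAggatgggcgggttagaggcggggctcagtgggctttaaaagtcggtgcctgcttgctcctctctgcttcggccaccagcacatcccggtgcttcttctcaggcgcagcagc
Peg3, chr7:6730370-6730669, minus strand: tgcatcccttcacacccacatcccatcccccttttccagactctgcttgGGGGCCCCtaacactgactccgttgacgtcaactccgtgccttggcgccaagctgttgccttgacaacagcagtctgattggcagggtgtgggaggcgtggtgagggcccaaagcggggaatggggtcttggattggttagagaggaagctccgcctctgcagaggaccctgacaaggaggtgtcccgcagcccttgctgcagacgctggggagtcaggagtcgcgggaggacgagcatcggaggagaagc
GGGGCCCC lay in 1.08% of all 32851 promoter windows in the table and in 1 of the 15 member windows, that of Peg3, where it begins 201 bases before the start site. The ZFP57 motif lay in 11.6% of all windows and in 6 of the 15 member windows. Of these, 2 are overlapping Mest windows, and the others belong to Plagl1, to Meg3, and to start sites of Grb10 and Igf2, the Igf2 site being one upstream of that printed. The TATA box, searched as TATAAA on both strands, lay in 13.6% of all windows and in 2 of the 15, those of Phlda2 and Meg3. The printed Igf2 window holds 7 CpG dinucleotides, the median over all windows, whereas those of Plagl1, Mest and Peg3 hold 26, 17 and 13. These matches are descriptions of the letters in the windows.

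Several members also carry microRNAs within their spans, and those of H19, Igf2 and Mest are shown because their hosts stand apart between the lines. The sequences come from RefSeq (GRCm38.p6), with the seed (bases 2 to 8) in capitals.
mmu-miR-675-5p, in H19, chr7:142577112-142577133, minus strand: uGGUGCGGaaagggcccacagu
mmu-miR-675-3p, in H19, chr7:142577078-142577099, minus strand: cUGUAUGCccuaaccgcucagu
mmu-miR-483-5p, in Igf2, chr7:142654968-142654989, minus strand: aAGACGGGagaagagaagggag
mmu-miR-483-3p, in Igf2, chr7:142654932-142654952, minus strand: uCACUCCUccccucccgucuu
mmu-miR-335-5p, in Mest, chr6:30741314-30741336, plus strand: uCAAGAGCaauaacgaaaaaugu
mmu-miR-335-3p, in Mest, chr6:30741354-30741375, plus strand: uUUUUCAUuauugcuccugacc
No seed is shared among the 6. Mature microRNAs were not measured in these libraries, so the values below are those of the host genes.

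**Figure D1:**
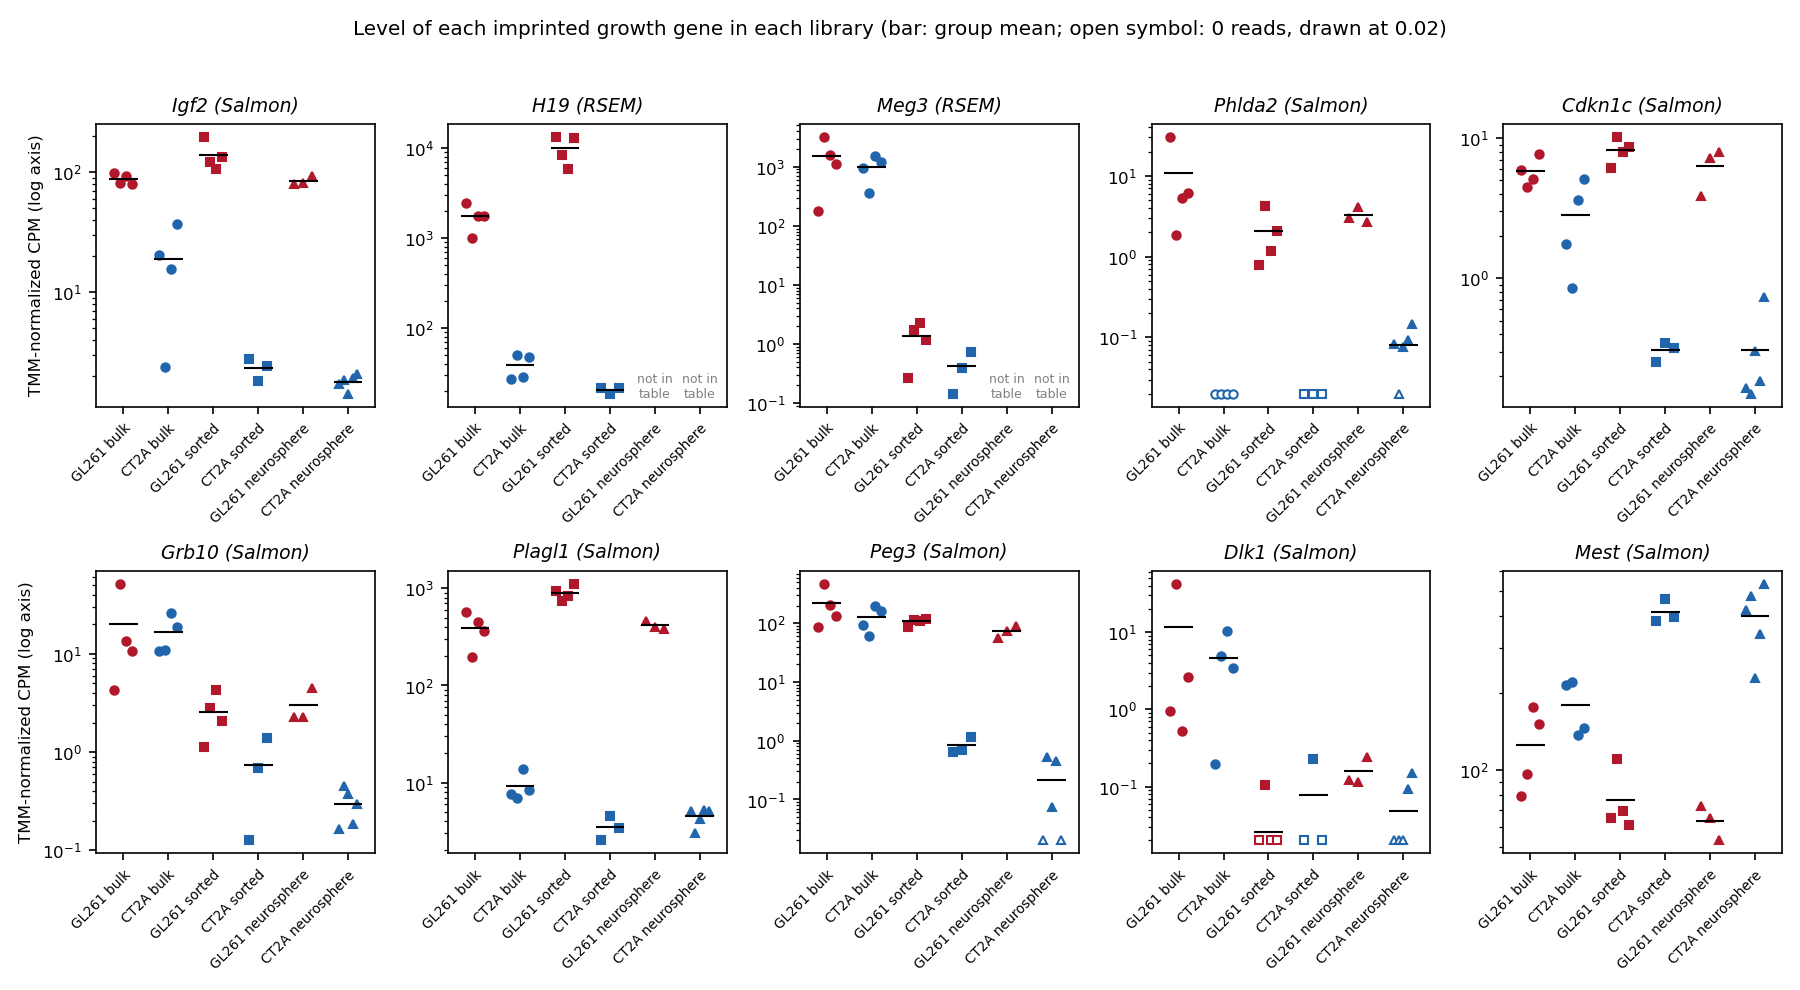
Level of each member in each library, as TMM-normalized CPM on a log axis, by group (red, GL261; blue, CT2A; bars, group means; open symbols, 0 reads). GL261 libraries stood above CT2A libraries for Igf2, H19, Phlda2 and Plagl1 in each kind of sample measured, Mest was higher in CT2A sorted and neurosphere-derived cells, and Meg3 and Dlk1 were high only among bulk tumors.

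Igf2 (chr7:142650766-142666816, minus strand), the fetal growth factor that signals through the IGF1 and insulin receptors, was higher in GL261 in every kind of sample. In GL261 bulk tumors it stood at 98.9, 80.6, 92.5 and 79.9 CPM in replicates 405, 412, 414 and 417. In CT2A bulk tumors it stood at 20.3, 2.39, 15.6 and 36.7 CPM in replicates 39, 40, 47 and 48. The lines did not overlap, and the CT2A tumors spread widely, with replicate 40 far below the others. The group means were 88.0 ± 9.32 (SD, n = 4) and 18.7 ± 14.2 CPM (SD, n = 4), and the log2 fold change of CT2A over GL261 was -2.30 (SE 0.62).

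The gap was wider in sorted and neurosphere-derived cells, which also differ from bulk tumors in subline and sequencing. Igf2 stood at 196, 122, 106 and 133 CPM in GL261 sorted replicates 81, 82, 83 and 84, against 2.78, 1.84 and 2.45 CPM in CT2A sorted replicates 69, 70 and 71. In neurosphere-derived cells it stood at 78.9, 80.6 and 92.7 CPM in the 3 GL261 libraries and at 1.43 to 2.07 CPM (median 1.87) in the 5 CT2A libraries. CT2A tumor cells therefore held 14 to 25 Igf2 reads per library, while GL261 tumor cells held 654 to 1721. The log2 fold changes were -5.87 (SE 0.29) in sorted cells and -5.59 (SE 0.16) in neurosphere-derived cells.

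The CT2A bulk tumors held more Igf2 than the CT2A sorted cells in 3 of 4 libraries, and markers of the cells that make Igf2 in adult brain were present there. The 7 leptomeningeal fibroblast markers summed to 180, 87.7, 338 and 297 CPM in CT2A replicates 39, 40, 47 and 48, and the 6 choroid plexus markers to 3.2, 2.1, 9.19 and 447 CPM. Replicate 40 was lowest in both marker sums and in Igf2, and replicate 48 was highest in choroid plexus markers and in Igf2. Replicate 47, however, exceeded replicate 39 in both marker sums and had less Igf2. In CT2A sorted cells the same lists summed to 49.8 to 68.8 and 21.1 to 33.1 CPM. In GL261 sorted cells they summed to 199 to 360 CPM (6 of 7 leptomeningeal markers detected, Slc22a6 at 0) and 17.3 to 80.9 CPM. In neurosphere-derived cells the leptomeningeal list summed to 154 to 180 CPM in GL261 and 36.6 to 51.9 in CT2A, and the choroid plexus list to 273 to 407 and 5.72 to 24.4 CPM, both higher in GL261 as Igf2 was. The part of these cells in the Igf2 levels was not tested. The leptomeningeal list includes Slc47a1, which followed Plagl1 over the 23 libraries (Pearson r of 0.994). Its sum therefore cannot be read as leptomeningeal cells alone. Salmon placed 84.0% of the Igf2 reads of GL261 bulk tumors and 83.2% of those of CT2A bulk tumors on Igf2-201, whose start site is the window printed above. The share was 90.8% and 91.9% in GL261 and CT2A sorted cells and 91.2% and 92.1% in neurosphere-derived cells, so the lines differed in the amount of this transcript rather than in which start site most reads came from.

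H19 (chr7:142575529-142578143, minus strand), the maternally expressed noncoding RNA that shares an enhancer and a methylated control region with Igf2, showed the widest gap of the RSEM-measured members in sorted cells. In GL261 sorted cells it stood at 13300, 8320, 5920 and 12900 CPM in replicates 81, 82, 83 and 84. In CT2A sorted cells it stood at 21.3, 18.6 and 21.5 CPM in replicates 69, 70 and 71. It took 0.568% to 1.16% of all RSEM counts in a GL261 sorted library, against 0.00171% to 0.00202% in a CT2A sorted library. Per transcript length (TPM) it ranked 4th, 9th, 15th and 5th of all genes in GL261 replicates 81, 82, 83 and 84. The log2 fold change was -8.94 (SE 0.41), with an adjusted p of 1.78e-06 by edgeR's quasi-likelihood test over the 14445 genes tested, of which 50.1% passed and 26.4% were lower in CT2A. Under the 11 alternatives run, the log2 fold change of H19 ranged from -9.13 to -8.79 and the largest adjusted p by edgeR or DESeq2 was 5.59e-05.

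In bulk tumors H19 stood at 2480, 1000, 1760 and 1750 CPM in GL261 replicates 405, 412, 414 and 417, and at 27.1, 50.2, 28.8 and 48.0 CPM in CT2A replicates 39, 40, 47 and 48. Each GL261 tumor lay far above each CT2A tumor, with a log2 fold change of -5.33 (SE 0.38) and an adjusted p of 0.000159 (edgeR quasi-likelihood test over 18564 genes, of which 24.5% passed and 10.8% were lower in CT2A). Of the genes that passed there, 56.1% were higher in CT2A under TMM and 45.7% under DESeq2 size factors, or 36.4% with all groups in 1 fit, and H19 was lower in CT2A under each (range of log2 fold changes over 12 alternatives, -5.60 to -5.17). Per transcript length, H19 exceeded Igf2 in all 15 libraries. The ratio of their RSEM TPM was 51.9 to 89.5 in GL261 sorted cells and 10.1 to 10.2 in CT2A sorted cells. It was 12.9 to 19 in GL261 bulk tumors and 1.51, 1.56, 2.60 and 17.1 in CT2A bulk tumors, where the high ratio belonged to replicate 40, the tumor with the least Igf2. Both genes were lower in CT2A, and the ratio of H19 to Igf2 was lower there in sorted cells.

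The receptors of IGF2 were followed as a list of 6 genes with the IGF2 mRNA-binding proteins. Igf2r, itself imprinted in mice and expressed from the mother's copy outside neurons, encodes the receptor that takes IGF2 to lysosomes, and it differed in the opposite direction to Igf2. It stood at 2.51, 11.9, 8.87 and 10.8 CPM in GL261 sorted replicates 81, 82, 83 and 84, against 551, 620 and 813 CPM in CT2A sorted replicates 69, 70 and 71. In bulk tumors it stood at 15.9, 40.4, 26.1 and 28.1 CPM in GL261 and at 230, 281, 174 and 155 CPM in CT2A. No library of one line reached the range of the other. Igf2r rose in CT2A by 6.28 on the log2 scale (SE 0.46, adjusted p = 1.75e-05) in sorted cells, by 2.91 (SE 0.30, adjusted p = 0.000635) in bulk tumors and by 4.68 (SE 0.47, adjusted p = 2.9e-05) in neurosphere-derived cells, all by edgeR's quasi-likelihood test. Of the others, Igf1r passed only in neurosphere-derived cells (log2 fold change 0.73, SE 0.12, adjusted p = 0.000464, edgeR) and Igf2bp2 only in sorted cells (-0.57, SE 0.14, adjusted p = 0.00968, edgeR). The differences between kinds of sample were not tested. In all, 1 of 5 tested genes of the list passed in bulk tumors, 2 of 5 in sorted cells and 2 of 5 in neurosphere-derived cells, with medians of -0.09, -0.35 and 0.35 on the log2 scale against -0.05, -0.01 and 0.03 over all genes. Of all genes, 23.4%, 50.8% and 59.6% passed.

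**Figure D2:**
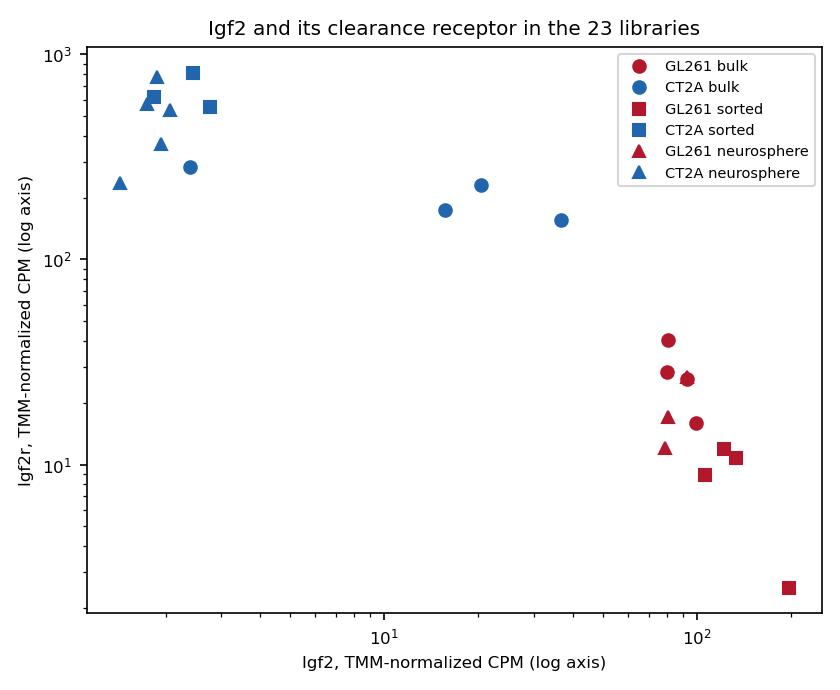
Igf2 against Igf2r in the 23 libraries, as TMM-normalized CPM on log axes (red, GL261; blue, CT2A; symbol, kind of sample). GL261 libraries lay at high Igf2 and low Igf2r and CT2A libraries at low Igf2 and high Igf2r, with 3 of the 4 CT2A bulk tumors between them and replicate 40 (Igf2 2.39, Igf2r 281) among the CT2A sorted and neurosphere-derived libraries.

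Phlda2, Cdkn1c and Grb10 restrain growth: PHLDA2 limits placental size, CDKN1C (p57) inhibits cyclin-dependent kinases, and GRB10 binds and dampens the insulin and IGF1 receptors. Phlda2 and Cdkn1c lie in 1 imprinted cluster on chromosome 7 and were lower in CT2A, as Igf2 was. Phlda2 (chr7:143501545-143503150, minus strand) had 1288, 84, 216 and 244 reads in GL261 bulk replicates 405, 412, 414 and 417 (30.4, 1.83, 5.36 and 6.16 CPM) and 0 reads in each of the 4 CT2A bulk tumors. Counting each CT2A library at 3 reads, its mean was at least 38.1-fold higher in GL261, or at least 15.5-fold without replicate 405. These are Salmon reads, and RSEM counted 1 and 2 reads in CT2A bulk replicates 39 and 48, with a log2 fold change of -7.77 (SE 1.25). In sorted cells it had 7, 41, 9 and 21 reads in GL261 replicates 81, 82, 83 and 84 and 0 in each of the 3 CT2A libraries, at least 5.97-fold higher on the same floor, or at least 3.87-fold without replicate 82. In neurosphere-derived cells it had 25, 36 and 22 reads in GL261 and 0 or 1 read in the CT2A libraries. Phlda2 was thus detected in all 11 GL261 libraries, at low depth outside bulk tumors, and GL261 bulk replicate 405 alone held most of the bulk reads.

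Cdkn1c (chr7:143458339-143461050, minus strand) was a low transcript in GL261 and near the limit of detection in CT2A tumor cells. It stood at 6.16, 10.2, 7.97 and 8.70 CPM in GL261 sorted cells and at 0.253, 0.345 and 0.319 CPM, or 2 to 3 reads per library, in CT2A sorted cells. In neurosphere-derived cells it stood at 3.86, 7.25 and 7.95 CPM in GL261 and 0.150 to 0.741 CPM (median 0.184) in CT2A. The log2 fold changes were -4.68 (SE 0.39) and -4.49 (SE 0.51). In bulk tumors the lines overlapped, with 5.93, 4.51, 5.11 and 7.72 CPM in GL261 and 1.75, 0.859, 3.64 and 5.14 CPM in CT2A, and the log2 fold change was -1.10 (SE 0.50). In the RSEM tables the same libraries did not overlap for Cdkn1c (nor for 30.3% of all genes). The CT2A bulk tumors lay above the CT2A sorted cells in all 4 libraries. The summed markers of neurons, of astrocytes and of choroid plexus put the CT2A bulk tumors in the same order as Cdkn1c did. Leptomeningeal markers did so except that replicates 47 and 48 changed places, and the part of any of these cells was not tested.

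Grb10 (chr11:11930508-12038683, minus strand) was low in tumor cells of both lines and higher in bulk tumors other than GL261 replicate 405. That tumor, at 4.25 CPM, lay within the range of GL261 neurosphere-derived cells. Sorted GL261 cells held 10, 27, 33 and 21 reads (1.14, 2.81, 4.24 and 2.08 CPM) and sorted CT2A cells 1, 6 and 13 reads (0.126, 0.690 and 1.38 CPM). The ranges overlapped between CT2A replicate 71 and GL261 replicate 81, and the log2 fold change was -1.75 (SE 0.72). It was -2.57 without CT2A replicate 71 and -1.99 without GL261 replicate 81. In neurosphere-derived cells the ranges did not overlap (2.29 to 4.45 CPM in GL261, 0.166 to 0.449 in CT2A) and the log2 fold change was -3.33 (SE 0.46). In neurons of the mouse brain Grb10 is transcribed from start sites downstream of the main one. The transcript from such a start site, Grb10-203, took 24.3% of the pooled Grb10 reads in GL261 bulk tumors and 13% in CT2A bulk tumors. Grb10-201 from the main site took 70.3% and 80.9%. By library the Grb10-203 share was 8.77% to 32.1% in GL261 and 0% to 18.5% in CT2A, so the lines overlapped. In GL261 sorted cells Grb10-203 took 10 of 91 reads (0% to 100% by library). In GL261 neurosphere-derived cells all 76 reads fell on Grb10-201. In CT2A Grb10-203 took 7 of 20 reads in sorted cells and 11 of 17 in neurosphere-derived cells, counts that give little precision.

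Plagl1 (chr10:13060504-13131694, plus strand) encodes a zinc finger factor that binds GC-rich sites and, in mouse, regulates a network of imprinted genes that includes Igf2, H19 and Cdkn1c. It was the most abundant Salmon-measured member in GL261 tumor cells per transcript length, at 356 ± 68.7 TPM (SD, n = 4), above Igf2 at 70.1 ± 12.5 TPM. Plagl1 stood at 941, 735, 829 and 1120 CPM in GL261 sorted replicates 81, 82, 83 and 84 and at 2.53, 4.48 and 3.40 CPM in CT2A sorted replicates 69, 70 and 71. In neurosphere-derived cells it stood at 467, 404 and 385 CPM in GL261 and 2.99 to 5.23 CPM (median 5.04) in CT2A. It separated the lines in every kind of sample. In bulk tumors it stood at 568, 195, 451 and 368 CPM in GL261 replicates 405, 412, 414 and 417 and at 7.56, 6.97, 13.8 and 8.37 CPM in CT2A replicates 39, 40, 47 and 48. The log2 fold changes of CT2A over GL261 were -5.51 (SE 0.45) in bulk, -8.00 (SE 0.29) in sorted and -6.59 (SE 0.18) in neurosphere-derived cells. Plagl1-202, which begins within the printed window, took 82.4% to 88.9% of the Plagl1 reads across the 6 groups. Among GL261 bulk tumors, replicate 405 had the most Plagl1 and the lowest neuron marker sum (222 CPM), and replicate 412 the least Plagl1 and the highest sum (3850 CPM).

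Peg3 (chr7:6703892-6730431, minus strand), a paternally expressed zinc finger gene that is abundant in neurons, showed how far bulk and sorted samples can differ. In sorted cells it stood at 88.2, 114, 111 and 117 CPM in GL261 and at 0.631, 0.690 and 1.17 CPM in CT2A, and in neurosphere-derived cells at 56.1, 73.7 and 89.6 CPM in GL261 and 0 to 0.523 CPM in CT2A. The GL261 values lay within a narrow range, and CT2A tumor cells held 0 to 11 reads per library. The log2 fold changes were -6.96 (SE 0.26) and -8.28 (SE 0.50). In bulk tumors, by contrast, the lines overlapped, at 85.4, 474, 207 and 132 CPM in GL261 replicates 405, 412, 414 and 417 and 93.9, 61.0, 200 and 161 CPM in CT2A replicates 39, 40, 47 and 48. The log2 fold change was -0.80 (SE 0.53).

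Meg3 (chr12:109541001-109571726, plus strand), a maternally expressed noncoding RNA of the Dlk1-Dio3 cluster that restrains cell growth, belonged to bulk tumors. It stood at 178, 3200, 1590 and 1100 CPM in GL261 replicates 405, 412, 414 and 417 and at 951, 362, 1510 and 1200 CPM in CT2A replicates 39, 40, 47 and 48. In sorted cells it had 2, 14, 15 and 10 counts in GL261 and 1, 3 and 6 counts in CT2A, under the minimum for a test. Its bulk levels overlapped between the lines, and the log2 fold change was -0.40 (SE 0.75), with an adjusted p of 0.791 by edgeR's quasi-likelihood test. Leaving out GL261 replicate 412 turned the direction (log2 fold change 0.23), and over 12 alternatives it ranged from -0.80 to 0.23.

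Dlk1 (chr12:109452823-109463336, plus strand), a paternally expressed relative of the Notch ligands from the same cluster, was also seen mainly in bulk tumors. It stood at 0.945, 42.6, 0.521 and 2.60 CPM in GL261 and at 0.194, 4.87, 10.3 and 3.42 CPM in CT2A. GL261 replicate 412 held 1956 of the 2120 GL261 reads and stood alone. With it the log2 fold change was -1.26 (SE 1.41) and without it 1.70, so the direction rested on that tumor. Sorted and neurosphere-derived libraries held 0 to 2 Dlk1 reads each.

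In GL261 bulk tumors Meg3, Peg3 and Grb10 had the order of the neuron markers and of other brain markers. In GL261 replicates 405, 417, 414 and 412 the 9 neuron markers summed to 222, 1690, 2640 and 3850 CPM, and Meg3, Peg3 and Grb10 were each ordered the same way, Grb10 at 4.25, 10.8, 13.5 and 51.8 CPM. In CT2A replicates 40, 39, 47 and 48 the markers summed to 558, 2140, 2550 and 3510 CPM. There Meg3 and Peg3 were highest in replicate 47 and lowest in replicate 40, and Grb10 was highest in replicate 47 at 26.2 CPM and near 11 CPM in replicates 39 and 40 (10.8 and 11). Oligodendrocyte markers had the same order in GL261, at 884, 1900, 2050 and 4350 CPM. So did astrocyte markers (678, 1620, 1850 and 3170 CPM) and leptomeningeal markers (224, 285, 351 and 508 CPM). In CT2A, Meg3 and Peg3 had the order of the leptomeningeal markers and Grb10 that of the oligodendrocyte markers. None of these genes had the order of the neuron markers there. Replicate 412 was thus the library richest in these brain markers and in Meg3, Peg3, Grb10 and Dlk1. The part of neurons or of other host cells in these levels was not tested. Without it, the log2 fold change of Grb10 between bulk tumors went from -0.26 (SE 0.66) to 0.73.

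**Figure D3:**
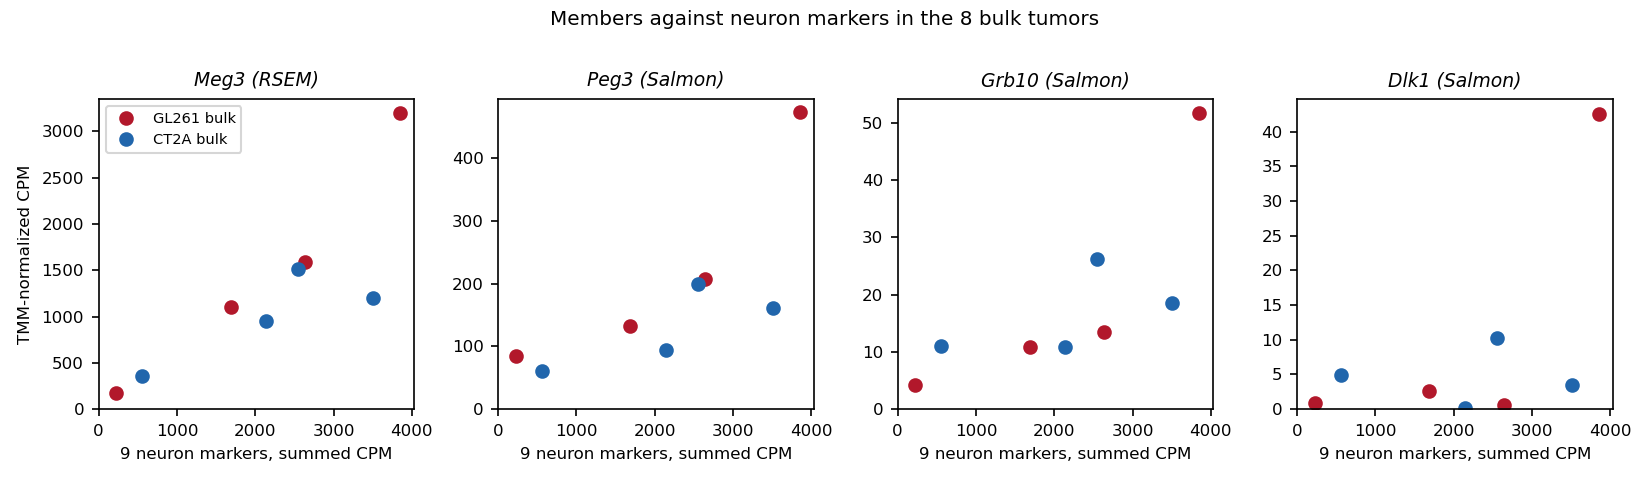
Meg3, Peg3, Grb10 and Dlk1 (TMM-normalized CPM) against the summed CPM of 9 neuron markers in the 8 bulk tumors (red, GL261; blue, CT2A; 1 point per tumor). GL261 replicate 412 lies at the upper right in each panel, with 3850 CPM of neuron markers, and the lines overlap.

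Mest (chr6:30723547-30748465, plus strand), a paternally expressed gene for a hydrolase-like membrane protein, was the member that CT2A expressed more strongly. It stood at 381, 465 and 396 CPM in CT2A sorted replicates 69, 70 and 71 and at 64.7, 110, 69.3 and 60.9 CPM in GL261 sorted replicates 81, 82, 83 and 84. In neurosphere-derived cells it stood at 229 to 535 CPM (median 423) in CT2A and 72.2, 64.8 and 53.0 CPM in GL261. The lines did not overlap in either, and the log2 fold changes were 2.45 (SE 0.23) and 2.62 (SE 0.28). In bulk tumors the lines overlapped, at 79.4, 96.4, 176 and 151 CPM in GL261 and 214, 221, 137 and 146 CPM in CT2A, with a log2 fold change of 0.48 (SE 0.29). In CT2A sorted cells Mest was the leading Salmon-measured member per transcript length (266 ± 33.9 TPM, SD, n = 3), and the next, Plagl1, stood at 1.64 ± 0.806 TPM. Mest-211, which starts at the site of the printed window, took 94.8% to 97.4% of the Mest reads in the 6 groups. Per transcript length, the order in GL261 sorted cells was Plagl1, Igf2, Mest (47.8 ± 17.3 TPM), Peg3 (18.9 ± 3.79), Cdkn1c (7.74 ± 2.10), Phlda2 (6.59 ± 4.34), Grb10 (0.787 ± 0.443) and Dlk1 (0.0106 ± 0.0211, SD, n = 4 for each). Igf2 and Mest overlapped there, as did Cdkn1c and Phlda2.

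**Figure D4:**
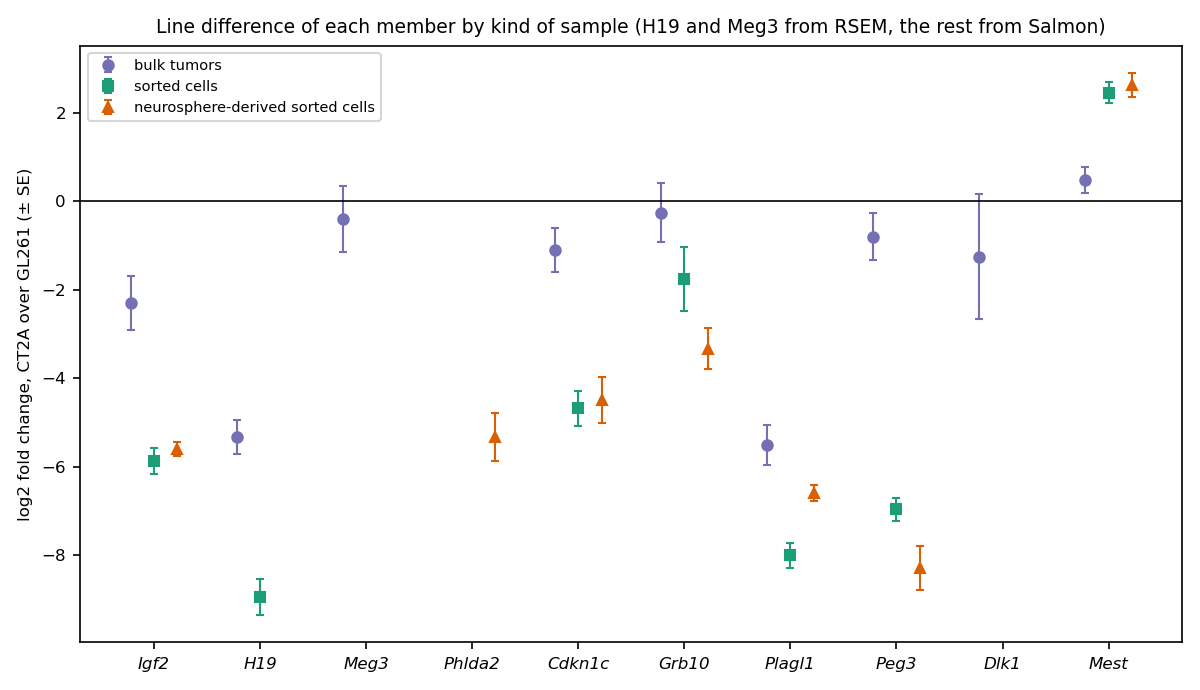
Log2 fold change of CT2A over GL261 with its SE for each member, in bulk tumors, sorted cells and neurosphere-derived sorted cells (H19 and Meg3 from RSEM, without neurosphere-derived cells). Values for Phlda2 in bulk and sorted samples are left out because CT2A had 0 Salmon reads, and untested members are left out. Mest alone lies above 0 throughout, and Peg3 and Cdkn1c lie nearer 0 in bulk tumors than in sorted cells.

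Across the Salmon-measured members, 3 of 8 lay past the edgeR threshold (Benjamini-Hochberg adjusted p under 0.05 over all genes) between bulk tumors (Igf2, Phlda2 and Plagl1, all lower in CT2A), where 23.4% of all 16434 genes tested did (11.9% lower and 11.4% higher). In sorted cells 6 of the 7 tested did, 5 lower in CT2A and Mest higher, where 50.8% of 13789 genes did (26.8% lower and 24% higher). In neurosphere-derived cells all 7 tested did, 6 lower in CT2A and Mest higher, where 59.6% of 13733 genes did (29.6% lower and 30.0% higher). The same members did not overlap between the lines in each comparison, where 31.5%, 58.1% and 58.6% of all genes did not. The genes were chosen with these contrasts known, and nothing is read from the shares. The counts also turned on single libraries, since Igf2 was no longer past the threshold in bulk tumors without CT2A replicate 39 or 47 or GL261 replicate 414 or 417 (log2 fold changes -2.39, -2.22, -2.29 and -2.34). In sorted cells Grb10 was past it in DESeq2 (-1.79) and without CT2A replicate 71 or GL261 replicate 81. The median log2 fold change of the members tested was -1.18, -5.87 and -5.32 in the 3 comparisons, against -0.05, -0.01 and 0.03 over all genes. The first and second of these medians include fitted values of Phlda2 against 0 reads. With Phlda2 at its bound they were -1.18 and -4.68.

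Between cultures of 1 line the fold changes of the members were small beside those between the lines. Each comparison shares its adherent-derived libraries with the line comparison of sorted cells. Between neurosphere-derived and adherent-derived GL261 cells, 1 of the 7 members tested lay past the edgeR threshold, where 8.53% of 13675 genes did and 0.951% were lower (88.9% of them higher in neurosphere-derived cells, or 74.2% in DESeq2 and 73.0% with all groups in 1 fit). It was Plagl1, at 419 ± 43.1 CPM (SD, n = 3) against 907 ± 166 CPM (SD, n = 4), with a log2 fold change of -1.01 (SE 0.18). Its call was lost without neurosphere replicate 90 (-0.99) or 91 (-0.94). Igf2 also did not overlap between the cultures, as 28.9% of all genes did not, with a log2 fold change of -0.62 (SE 0.21) that was short of the threshold. It passed in DESeq2 (-0.64), where 2 members did, and without adherent-derived replicate 81 (-0.43), as Peg3 did (-0.56). At an unadjusted p under 0.05 there were 3 members. The other 5 tested members had log2 fold changes between -0.46 and 0.74. The GL261 neurosphere-derived libraries also held more macrophage markers (8 markers, 2350 to 3660 CPM) than the GL261 sorted libraries (65.7 to 482 CPM), and more choroid plexus markers (273 to 407 against 17.3 to 80.9 CPM), whose part in the lower Plagl1 and Igf2 was not tested. Between the CT2A cultures Igf2 (-0.40, SE 0.31), Plagl1 (0.35, SE 0.31) and Mest (-0.06, SE 0.24) were above the count minimum and overlapped between the cultures (12.5% of all genes did not). None of these 3 passed in edgeR, at an unadjusted p under 0.05 or in DESeq2, where 0.167% of 13142 genes passed in edgeR.

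Other imprinted genes were followed as a list of 64, of which 58 were in the Salmon tables. In bulk tumors 6 of the 51 tested rose in CT2A, 5 fell and 40 did not pass, with a median log2 fold change of -0.25 against -0.05 over all genes. Those with the smallest p in each direction were Peg12 (from 0.287 ± 0.083 to 5.05 ± 1.27 CPM), the cadherin gene Cdh15 (from 1.14 ± 0.732 to 45.6 ± 11.6 CPM) and Igf2r among the risers, and Sfmbt2 (from 28.3 ± 10.4 to 6.85 ± 1.33 CPM), Cd81 (from 344 ± 95.1 to 175 ± 33.3 CPM) and Rtl1 (from 9.07 ± 5.43 to 2.52 ± 0.823 CPM) among the fallers (SD, n = 4 in each line). Cd81 was no longer past the threshold without CT2A replicate 39 or 40, nor Rtl1 without CT2A replicate 39, 40 or 48 or GL261 replicate 417. Their adjusted p-values by edgeR's quasi-likelihood test were 0.000305 for Peg12, 0.000311 for Cdh15, 0.00368 for Sfmbt2, 0.0176 for Cd81 and 0.0253 for Rtl1.

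In sorted cells 12 of the 39 tested rose in CT2A, 14 fell and 13 did not pass, with a median of 0.21 against -0.01 over all genes. In neurosphere-derived cells 17 of 39 rose, 14 fell and 8 did not pass, with a median of 0.01 against 0.03. Osbpl5, an oxysterol-binding protein gene of the Cdkn1c cluster, rose from 2.37 ± 0.470 to 55.7 ± 4.21 CPM in sorted cells (log2 fold change 4.56, SE 0.20, adjusted p = 1.47e-06, edgeR), although Phlda2 and Cdkn1c beside it were lower. Peg10, a retrotransposon-derived gene needed in the placenta, rose from 19.5 ± 3.22 to 134 ± 22.3 CPM (log2 fold change 2.79, SE 0.17, adjusted p = 7.37e-06, edgeR). Sfmbt2, a Polycomb protein gene, fell from 58.3 ± 4.17 to 7.34 ± 0.658 CPM (log2 fold change -2.97, SE 0.15, adjusted p = 2.68e-06, edgeR). Htra3 (68.3 ± 11.4 to 7.78 ± 1.76 CPM) and Tssc4 (75.2 ± 12.7 to 20.4 ± 3.01 CPM) fell as well (adjusted p = 1.59e-05 and 6.33e-05, edgeR). In neurosphere-derived cells Osbpl5, Ppp1r9a and Peg10 had the smallest p among the risers, at log2 fold changes of 4.6, 3.08 and 3.47, and Cd81, Sfmbt2 and Rasgrf1 among the fallers, at -1.77, -2.32 and -5.79 (adjusted p from 3.41e-07 to 2.44e-05, edgeR). Imprinted genes as a list therefore moved both ways between the lines. Between the GL261 cultures 3 of 35 passed (Tnfrsf23 and Pon3 rose, Tssc4 fell, and each fell short without neurosphere replicate 89) and between the CT2A cultures 0 of 35 passed in edgeR, 5 at an unadjusted p under 0.05 and 2 in DESeq2. Over all genes 8.53% and 0.167% passed in edgeR.

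The genes that set or keep imprints and DNA methylation were a list of 16. In bulk tumors 3 of the 14 tested rose in CT2A and 1 fell, in sorted cells 6 of 13 rose and 1 fell, and in neurosphere-derived cells 7 of 13 rose and 1 fell, with medians of 0.14, 0.39 and 0.45 on the log2 scale. Over all genes 23.4%, 50.8% and 59.6% passed, with medians of -0.05, -0.01 and 0.03. The genes of this list named next were chosen after their values were seen. Zfp57 stood at 15.2 ± 2.50 CPM in GL261 sorted cells (SD, n = 4) and 31.0 ± 0.889 in CT2A (SD, n = 3, adjusted p = 0.00104, edgeR), and its cofactor gene Trim28 at 248 ± 9.37 and 378 ± 26.9 CPM (adjusted p = 0.00225, edgeR). Hells, a chromatin remodeler gene needed for DNA methylation, rose from 42.5 ± 16.6 to 138 ± 12.9 CPM (adjusted p = 0.0024, edgeR), and Tet1, which starts the removal of methylation, fell from 18.0 ± 4.94 to 7.01 ± 0.470 CPM (adjusted p = 0.00329, edgeR). Dnmt1, the maintenance methyltransferase gene, did not pass in any line comparison (log2 fold changes -0.24, -0.06 and 0.06). Ctcf, whose protein insulates Igf2 from its enhancer on the mother's copy, rose by 0.49, 0.45 and 0.58 on the log2 scale (SE 0.15, 0.14 and 0.12, adjusted p = 0.0484, 0.0255 and 0.00242, edgeR).

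The closest relatives of the member proteins were a list of 10, all tested. Of these, 4 were lower in CT2A bulk tumors and none higher by edgeR (4 of the 10 passed in all, also at an unadjusted p under 0.05 and in DESeq2), 4 were lower and 1 higher in sorted cells, and 4 lower and 2 higher in neurosphere-derived cells. Their medians were -0.25, -0.67 and -0.38 on the log2 scale, beside the same shares and medians over all genes. Phlda1, the relative of Phlda2, fell from 380 ± 126 to 42.5 ± 9.49 CPM in sorted cells (adjusted p = 4.58e-05, edgeR), and Cdkn1a, the relative of Cdkn1c, fell from 144 ± 91.1 to 15.1 ± 1.07 CPM (adjusted p = 0.000425, edgeR). Igf1, the other IGF ligand, moved against Igf2 there, from 4.29 ± 2.62 to 67.8 ± 13.2 CPM (adjusted p = 0.000319, edgeR), and did not pass in bulk tumors or neurosphere-derived cells. Cdkn1b, Plagl2 and Dlk2 did not pass in bulk tumors or sorted cells, and Dlk2 fell in neurosphere-derived cells (log2 fold change -1.83, SE 0.43, adjusted p = 0.00453, edgeR).

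The genes beside the members on their chromosomes are described by their median fold changes between the lines. The nearest tested genes were counted after leaving out the members and the listed other imprinted genes, those of the same cluster included. The 20 nearest tested genes around Igf2 and H19, 10 on each side, had a median log2 fold change of -0.05 in bulk tumors, 0.09 in sorted cells and -0.29 in neurosphere-derived cells, against Igf2 at -2.30, -5.87 and -5.59. The 20 around Peg3 had medians of -0.06, -0.58 and 0.02, and in RSEM 0.01 in bulk tumors and 0.08 in sorted cells. Those around Mest had medians of -0.15, -0.46 and -0.39 while Mest itself was higher in CT2A. Around Plagl1 the medians were -0.46, -0.57 and -0.67, with 7, 10 and 11 of 20 lower in CT2A past the edgeR threshold, and Plagl1 at -5.51, -8.00 and -6.59 lay far below them. Around Grb10 the bulk median was -0.27, close to Grb10 itself at -0.26, and the medians in sorted and neurosphere-derived cells were -0.04 and 0.01 against -1.75 and -3.33. Around Phlda2 and Cdkn1c the medians were -0.05, 0.13 and -0.29.

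As a description over the 23 libraries, which share lines and kinds of sample, the non-members whose log2(CPM + 1) followed each member most closely (mean CPM of at least 1) were as follows. Igf2 was followed by Tspan13 and Chsy3 (Pearson r of 0.986 and 0.985) and Plagl1 by Slc47a1 and Gpat2 (0.994 and 0.991), Slc47a1 being also in the leptomeningeal marker list. Cdkn1c was followed by Ncald and L1cam (0.980 and 0.971), and Peg3 by Sdr39u1 and Atcay (0.991 and 0.988). Mest was followed by Ltbp3 and Col24a1 (0.959 and 0.958), Grb10 by Gucy1b1 and Dner (0.977 and 0.975), Dlk1 by AW551984 and Six3 (0.978 and 0.977), and Phlda2 by Shmt2 and Gm14819 (0.927 and 0.925). Among the members, Igf2 was closest to Cdkn1c (0.965) and Plagl1 (0.941), and Grb10 to Peg3 (0.831) and Dlk1 (0.817).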

How the data were processed

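RNA sequencing of 23 libraries was analysed from the tables the authors deposited. Salmon estimated counts (expected reads per transcript, all 23 libraries) and TPM were made by the authors against the mm10 (GRCm38) transcriptome. RSEM 1.3.3 expected counts and TPM per gene, after STAR 2.7.7a alignment, were deposited by the authors for 15 libraries. Salmon reads were summed per gene and all counts were rounded to whole numbers before testing. Genes with a mean normalized count of at least 10 in a comparison were tested with edgeR 4.0.16 (R 4.3.3; TMM scaling, quasi-likelihood F-test, two-sided), fitted only to the groups compared, with Benjamini-Hochberg adjustment over all genes tested and a threshold of 0.05. Each library counted as 1 replicate. The study counts its bulk and sorted samples as mice, and p-values measure the spread between libraries.

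The members and gene lists were chosen with earlier results of these data known. The genes named were the 10 members, the 2 non-members most correlated with each, up to 3 other imprinted genes in each direction per comparison with the smallest p, and measured genes of the receptor and relative lists. Genes of the imprint maintenance list were named outside this rule, after their values were seen. The 5 comparisons were the line difference in bulk tumors, sorted cells and neurosphere-derived cells and the culture difference within each line. Alternatives were DESeq2 1.42.0, edgeR with the size factors of DESeq2, testing without a count minimum, an offset for effective transcript length, all groups in 1 fit, RSEM in place of Salmon, and each library left out in turn. In data simulated with 200 changed genes, the test recovered 93.9% to 99.0% of 4-fold changes and 18.2% to 34.3% of 2-fold changes across the 5 comparisons. The simulation gave all genes 1 fixed dispersion (spread between replicates) that was not estimated from these libraries. These shares therefore do not hold for genes that spread more widely, as several members did in bulk tumors. A floor of 3 reads per library was used where a group had 0 reads. Transcripts that overlap on opposite strands, such as Igf2 and its antisense gene, cannot be told apart where counting ignores strand. The marker used for sorting is not reported here.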

Additional observations from a re-analysis of the deposited data

Results flagged for a closer look

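Of 37 combinations of a member and a group with 4 to 5 libraries, 4 had a library far from the others by Dixon's test at the 95% level. Chance gives this in about 1 of 20 where values are normally distributed, a rate that does not hold for members with few reads. Phlda2 stood at 30.4 CPM in GL261 bulk replicate 405, the tumor lowest in neuron markers, against 1.83 to 6.16 CPM in the other GL261 bulk tumors. Dlk1 stood at 42.6 CPM in GL261 bulk replicate 412, the tumor highest in neuron markers, against 0.521 to 2.60 CPM in the others. Cdkn1c stood at 0.741 CPM in CT2A neurosphere-derived replicate 61, against 0.150 to 0.301 CPM in the others, with 2 to 5 reads in each of these libraries. Dlk1 stood at 0.104 CPM in GL261 sorted replicate 82, which is 1 read, and at 0 in the other 3 libraries, a pattern that is always flagged.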

How the results depend on the processing

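Across the alternatives run, 429 of 448 log2 fold changes of members kept their direction and side of the threshold, 6 lost the threshold, 6 gained it and 7 changed sign. The sign changes all came from leaving out 1 library, and with 1 left out these values ranged in bulk tumors from -1.98 to 1.70 for Dlk1, -0.58 to 0.73 for Grb10 and -0.80 to 0.23 for Meg3, between the GL261 cultures from -0.29 to 0.07 for Mest and -0.05 to 0.68 for Grb10, and between the CT2A cultures from -0.18 to 0.09 for Mest. The bulk signs turned without GL261 replicate 412, and the culture signs without GL261 sorted replicate 82 (Mest), GL261 neurosphere replicate 91 (Grb10), and CT2A neurosphere replicate 59 or sorted replicate 70 (Mest, 0.09 and 0.02). The count of genes past the threshold went from 1167 to 1873 with DESeq2 between the GL261 cultures. Between the CT2A cultures it went from 22 to 302 with DESeq2, 35 with DESeq2 size factors, 60 with all groups in 1 fit and 87 with no minimum count. Other imprinted genes past the threshold between the CT2A cultures went from 0 to 2 with DESeq2. Imprint maintenance genes went from 4 to 2 in bulk tumors with no minimum and from 7 to 3 in sorted cells with the length offset, and IGF2 receptor and binding protein genes from 2 to 4 in neurosphere-derived cells with no minimum. With 1 library left out, genes past the threshold ranged from 2474 to 4777 in bulk tumors, 5556 to 8922 in sorted cells, 6894 to 9110 in neurosphere-derived cells, 307 to 2435 between the GL261 cultures and 0 to 191 between the CT2A cultures. Other imprinted genes ranged from 6 to 15, 22 to 29, 28 to 31, 0 to 7 and 0 to 1 in the same order. In bulk tumors, sorted and neurosphere-derived cells, IGF2 receptor and binding protein genes ranged from 1 to 1, 2 to 5 and 2 to 3, closest relatives from 3 to 4, 5 to 8 and 6 to 7, and imprint maintenance genes from 1 to 4, 5 to 8 and 6 to 9. Without a minimum count the median log2 fold change of all genes in bulk tumors was -0.19 in place of -0.05. Apart from fewer or more samples or genes, the cause was not tested. No paired analysis was possible because the groups share no replicate numbers. Depth limits Phlda2, Cdkn1c, Peg3, Grb10 and Dlk1 in CT2A tumor cells, where few reads were counted.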
